A study of Schizosaccharomyces pombe with 15 samples.

Results

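The 3′ ends of U6 snRNA in fission yeast (Schizosaccharomyces pombe) lacking cid12 are described here beside those of yeast lacking cid11 or cid16. The comparison used 3 of the 15 libraries of the series, 1 library per strain, chosen because their titles name a single deletion of one of these genes (cid11Δ, cid12Δ and cid16Δ) and because their RNA was handled alike. All 3 strains were grown logarithmically in YES medium at 30 °C with shaking, total RNA was treated with polynucleotide kinase (PNK), a 3′ adapter was ligated to it, and the U6 product was amplified and sequenced (3′ RACE). The labels give no further allele for these strains. The series as a whole set U6 ends of mutant strains against those of wild type. Both wild-type libraries without a tagged U6 are cited as context only: the PNK-treated library labelled wt, and the library labelled wt (NO PNK).

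U6 is the small nuclear RNA at the catalytic centre of the spliceosome. RNA polymerase III transcribes it and stops within a run of Ts, so that the newly made RNA ends in Us, which nucleases later trim and terminal nucleotidyltransferases can extend. The Cid proteins of fission yeast belong to a family of such transferases, which add As or Us to RNA 3′ ends. Cid12 is known as a subunit, with Rdp1 and Hrr1, of the RNA-directed RNA polymerase complex, which works in RNA interference at centromeres. Cid16 and Cid11 are further members of the family.

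Counts were given per distinct end, an end being the bases read past the constant part of U6. The libraries held 2794598 reads with an end in cid11Δ, 3966962 in cid12Δ and 3645873 in cid16Δ, so cid12Δ was the deepest. Reads holding an undetermined base (N) made up 0.0217%, 0.0226% and 0.0219% of them in the same order. A further line without any sequence held 0.112%, 0.142% and 0.175% of the counts of these libraries and was left out of all shares. With 1 library per strain no test was possible, and the labels do not say whether a library came from 1 culture. Instead, cid12Δ was called above or below the others only where its share lay outside both of theirs and its exact (Clopper-Pearson) 95% interval overlapped neither. Such intervals cover counting error only, since PCR reads without molecular identifiers are not independent molecules, and they say nothing of how much 2 cultures of one strain would differ. Fold values compare cid12Δ with whichever of cid11Δ and cid16Δ was nearer to it.

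The end forms on which the results turn are given as DNA letters (T for U), with the U run in lower case and the tail after it in capitals. The genomic sequence around the T run, on the minus strand of chrI:2562246-2562314 in the ASM294v3 build, comes first, with the T run in capitals. That T run (chrI:2562266-2562274) holds 9 Ts and lies just past the last annotated exon of the U6 gene snu6 (chrI:2562276-2562323). The 2 plain ends are the commonest ones, the 4 with As were chosen for their high count or fold in cid12Δ, and tAAAAT is the end with the largest fold below both other strains among the 77 ends compared further on.
U6 locus: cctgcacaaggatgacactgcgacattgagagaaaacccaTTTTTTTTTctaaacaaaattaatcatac
plain 5-U end: ttttt
plain 6-U end: tttttt
5 Us and 2 As: tttttAA
5 Us and 3 As: tttttAAA
5 Us and 4 As: tttttAAAA
6 Us and 3 As: ttttttAAA
1 U, 4 As and a U: tAAAAT

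Ends made of Us alone formed 96.2% of the cid11Δ reads, 93.1% in cid12Δ and 96.4% in cid16Δ. Among them the end with 5 Us was by far the commonest in all 3 strains, yet it was less common in cid12Δ. It held 86.1% of the cid11Δ reads (95% interval 86.1% to 86.2%), 78.7% (78.7% to 78.8%) in cid12Δ and 84.5% (84.5% to 84.6%) in cid16Δ. The difference of cid12Δ from cid16Δ was -5.80 percentage points, whereas cid11Δ and cid16Δ lay 1.61 points apart.

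Plain ends with 4 Us and with 6 to 9 Us were more common in cid12Δ. The plain 4-U end held 2.12% of the cid11Δ reads, 2.95% in cid12Δ and 1.63% in cid16Δ, and was 1.40-fold higher in cid12Δ than in cid11Δ. The plain 6-U end held 6.28%, 8.86% and 8.14% in the same order, so cid12Δ was highest here too, but only 1.09-fold above cid16Δ. The excess was wider at longer runs. Ends with 7 Us held 0.769%, 1.24% and 0.815% of reads (1.52-fold), those with 8 Us 0.0798%, 0.149% and 0.0603% (1.87-fold), and those with 9 Us 0.0103%, 0.0161% and 0.00422% (1.57-fold). For all ends of 7 or more Us together, the shares were 0.863%, 1.41% and 0.880%, which is 1.60-fold higher in cid12Δ.

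The shortest ends did not set cid12Δ apart. Plain ends with 1 to 3 Us held 0.811% of the cid11Δ reads, 1.13% in cid12Δ and 1.25% in cid16Δ, with cid12Δ between the others. Within that group the 1-U end (0.174%, 0.228% and 0.281%) and the 2-U end (0.270%, 0.344% and 0.540%) were also between, while the 3-U end was above both (0.367%, 0.554% and 0.431%). The mean U run differed little between the strains. It was 5.019 nt in cid11Δ, 5.038 nt in cid12Δ and 5.031 nt in cid16Δ over reads ending in Us or in Us and As, a difference of 0.00689 nt between cid12Δ and cid16Δ. The spread over reads (SD) was 0.480, 0.581 and 0.535 nt, widest in cid12Δ.

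**Figure D1:**
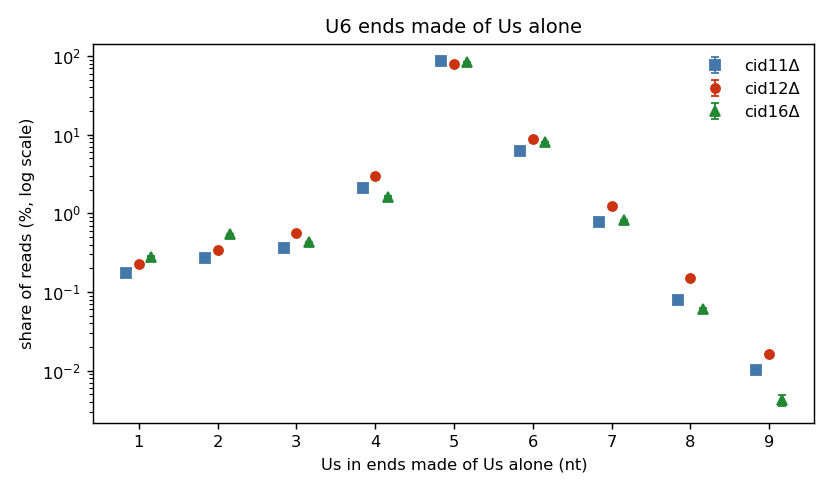
Share of reads (%, log scale) of U6 ends made of Us alone, by number of Us, in the 3 deletion strains; points are single libraries and bars are exact 95% intervals, mostly smaller than the points. The cid12Δ point is lowest at 5 Us (78.7%) and highest at 3 to 4 and at 6 to 9 Us, and lies between the others at 1 and 2 Us.

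Ends carrying only As after the U run were more common in cid12Δ. They made up 2.34% of the cid11Δ reads (95% interval 2.33% to 2.36%), 3.12% (3.10% to 3.14%) in cid12Δ and 2.07% (2.06% to 2.08%) in cid16Δ, or 1.33-fold more in cid12Δ than in cid11Δ. For context, the library labelled wt had 4.55% and the one without PNK 14.6%, so all 3 deletion libraries lay below both. Those 2 libraries also had more counts without sequence (3.22% and 2.48%) and more plain ends of 1 to 3 Us (16.2% and 14.5%). The wt library had 0 reads with an N. Differences of strain and of library cannot be told apart in this comparison.

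The length of the U run before the tail mattered to the direction. Among reads with 5 Us, 0.515% were A-tailed in cid11Δ, 0.800% in cid12Δ and 0.436% in cid16Δ, a 1.55-fold excess in cid12Δ. Among reads with 6 Us the shares were 2.40%, 3.53% and 2.003% (1.47-fold). Higher values in cid12Δ were also found at 2 Us (18.7%, 22.0% and 11.01%), at 3 Us (22.3%, 26.3% and 18.2%) and at 7 Us (3.53%, 4.04% and 2.81%). At 4 Us the order turned. There 41.4% of reads were A-tailed in cid11Δ, 37.0% in cid12Δ and 44.1% in cid16Δ, so cid12Δ was lowest at the U run where A tails were most frequent. The 4-U end with 1 A was nevertheless more common in cid12Δ as a share of all reads (1.47%, 1.62% and 1.26%), and the plain 4-U end, which enters the same denominator, was 1.40-fold higher. At 1 U and at 8 Us the cid12Δ interval overlapped another.

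**Figure D2:**
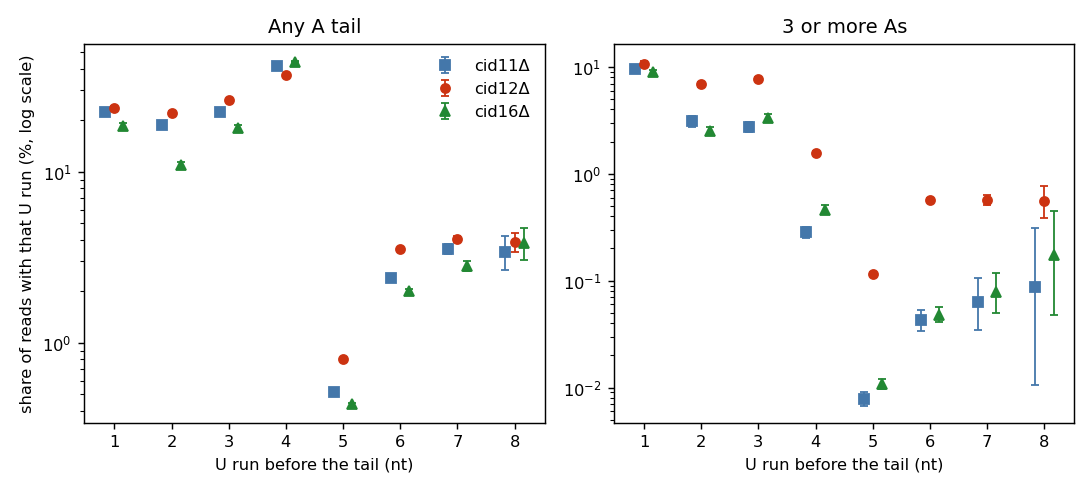
A-tailed share of the reads with a given U run (left) and share of those reads with tails of 3 or more As (right), both in % on a log scale, by U run in nt; points are single libraries and bars exact 95% intervals. On the left cid12Δ is highest at 2, 3, 5, 6 and 7 Us and lowest at 4 Us (37.0%), and on the right its excess is largest at 5 and 6 Us.

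Tails of a single A, the commonest kind, differed little between the strains, whereas tails of 2 or more As differed severalfold. A single A was carried by 2.24% of the cid11Δ reads, 2.62% in cid12Δ and 1.94% in cid16Δ (1.17-fold). Tails of 2 As were carried by 0.0369%, 0.148% and 0.0376% (3.93-fold), tails of 3 As by 0.0221%, 0.142% and 0.0314% (4.51-fold), and tails of 4 As by 0.0211%, 0.0989% and 0.0281% (3.52-fold). In cid11Δ and cid16Δ the share with 2 As was nearly equal, and cid12Δ stood well above both.

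Tails of 3 or more As were found on 13776 reads in cid12Δ, against 1812 in cid11Δ and 3320 in cid16Δ. In the order cid11Δ, cid12Δ and cid16Δ these were 0.0648%, 0.347% and 0.0911% of reads, 3.81-fold higher in cid12Δ than in cid16Δ. Of the A-tailed reads alone they formed 2.77%, 11.1% and 4.40%, so the tails that were present were also longer in cid12Δ, with a mean of 1.12, 1.42 and 1.18 As per A-tailed read. The excess narrowed for the longest tails: 10 or more As were carried by 0.00190%, 0.00749% and 0.00368% of reads (2.04-fold), and the longest tail had 17, 20 and 20 As. The library labelled wt had 3 or more As on 0.127% of reads and the one without PNK on 0.549%, and cid12Δ ranked 6 of the 11 libraries without a tagged U6 on this share. The libraries above it were wt (NO PNK), rrp6Δ, rrp6Δ (NO PNK), mpn1Δ and mpn1Δrrp6Δ, at 0.373% to 0.740%. Besides cid11Δ and cid16Δ, those below it were wt, cid14Δ and cid14Δmpn1Δ. The cid12Δ share was therefore high beside cid11Δ, cid16Δ and wt, and mid-ranked among the 11 libraries.

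**Figure D3:**
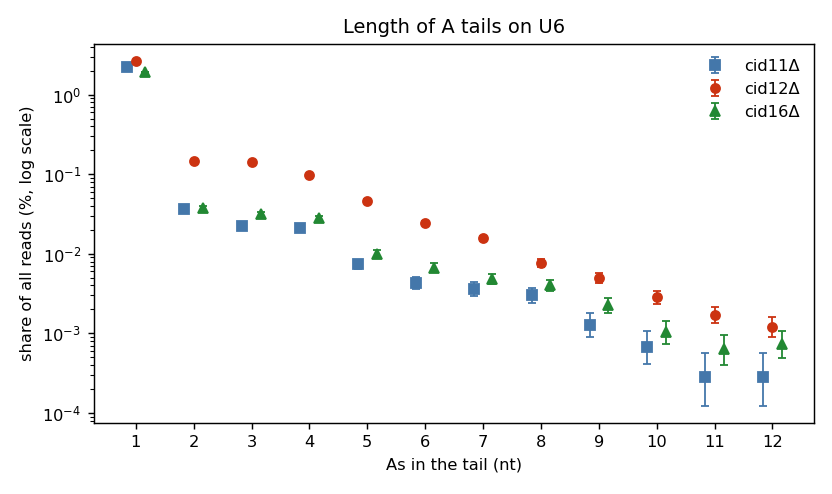
Share of all reads (%, log scale) by number of As in the tail (nt) in the 3 deletion strains; points are single libraries and bars exact 95% intervals. The cid12Δ points separate from the others from 2 As on (0.148% against 0.0369% and 0.0376%) and come closer to cid16Δ again at the longest tails.

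The U run that carried these longer A tails differed as well. Among reads with 5 Us, 3 or more As followed in 0.00785% in cid11Δ, 0.116% in cid12Δ and 0.0109% in cid16Δ, a 10.7-fold excess. Among reads with 6 Us the shares were 0.0428%, 0.568% and 0.0482% (11.8-fold), and among those with 7 Us 0.0628%, 0.569% and 0.0785% (7.24-fold). In the wt and wt (NO PNK) libraries the shares were 0.0353% and 0.204% at 5 Us, with cid12Δ between them. At 6 Us they were 0.0556% and 0.155%, both below cid12Δ. The excess was smaller on shorter U runs. It came to 3.41-fold at 4 Us (0.282%, 1.58% and 0.463%), 2.32-fold at 3 Us (2.73%, 7.71% and 3.33%) and 2.22-fold at 2 Us (3.09%, 6.87% and 2.52%). At 1 U the shares of 9.54%, 10.8% and 8.92% overlapped. Accordingly, reads with 5 or 6 Us made up 14.7% of all reads with 3 or more As in cid11Δ, 41.6% in cid12Δ and 14.5% in cid16Δ, while 1-U reads made up 32.9%, 9.23% and 33.8%.

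Read counts of single ends describe these tails further. The ends ttttAAA and tttAAA were among the 5 commonest with 3 or more As in all 3 libraries. Reads of ttttAAA numbered 146 in cid11Δ, 1288 in cid12Δ and 242 in cid16Δ (4.89-fold as a share), and those of tttAAA 141, 982 and 252 (3.58-fold). On both ends cid11Δ and cid16Δ were low. Both were also among the 5 largest folds of cid12Δ above the other strains. The remaining ends were picked through particular libraries, so the values of all these ends are a description of those ends only. Picked for being common in cid12Δ, tttttAAA had 94, 1632 and 156 reads, tttttAAAA had 39, 959 and 80, and ttttttAAA had 41, 850 and 73. Picked for their fold, tttttAA had 210, 1869 and 307 reads and tttAA had 178, 840 and 212. Picked for being common in cid11Δ and cid16Δ, tAAAA had 230, 455 and 394 reads, tAAA had 105, 285 and 238, and tttAAAA had 120, 625 and 204. The cid12Δ shares of tAAAA and tAAA overlapped those of cid16Δ, while that of tttAAAA was above both others (2.82-fold).

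Tails in which As were followed by Us went the other way. They made up 0.300% of the cid11Δ reads, 0.221% in cid12Δ and 0.310% in cid16Δ, 1.36-fold lower in cid12Δ than in cid11Δ. The deficit lay on U runs of 1 to 4 Us, while at 5 Us cid12Δ was slightly higher (0.0188%, 0.0249% and 0.0161% of all reads). The lowest single ends were of this kind. The end tAAAAT had 241 cid11Δ reads, 145 in cid12Δ and 465 in cid16Δ (2.36-fold lower), tAAT had 182, 127 and 383 (2.03-fold lower), and ttAAAAT had 186, 132 and 316. As a U at the start of a tail cannot be told apart from the U run, tails beginning with Us are counted within the U run throughout.

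Taking every end with at least 100 reads in each of the 3 libraries, 77 ends could be compared. Of these, 26 (33.8%) were above both other strains in cid12Δ and 18 (23.4%) were below both, 8 were between and 25 overlapped. The ends of Us alone numbered 9, of which 6 were above and 1, the 5-U end, was below. Of 17 A-tailed ends, 13 were above and 0 below, by a median of 1.23-fold for the 7 ends with 1 A and 2.81-fold for the 10 with more. Of the 26 ends with As and then Us, 0 were above and 16 below. The 11 other short-tailed ends included 5 above and 0 below, and the 7 ends with long tails had 0 called in either direction. One of those 5, an end of 5 Us with a 7-nt tail, was among the 5 largest folds above, with 142 cid11Δ reads, 759 in cid12Δ and 206 in cid16Δ (3.39-fold). Of the 7 ends with no leading U, AA and AAA were above and ATT was below, named here after their values were seen.

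Tails holding bases other than a plain run of As were also more common in cid12Δ. Tails of 1 to 14 nt of this kind made up 0.991% of the cid11Δ reads, 2.35% in cid12Δ and 0.969% in cid16Δ (2.37-fold). On this share cid12Δ ranked 8 of the 11 libraries without a tagged U6, below the wt (NO PNK) library at 2.84% and above the wt library at 2.07%, and cid11Δ and cid16Δ were the lowest 2. That rank pools all tails of 1 to 14 nt, which are given by length below. Those among them that held a C or a G accounted for 0.677%, 2.11% and 0.652% (3.12-fold). Tails of 15 nt or more, the length from which a match to the genome was sought, made up 0.339% (95% interval 0.332% to 0.346%), 1.32% (1.31% to 1.33%) and 0.388% (0.381% to 0.394%), or 3.40-fold more in cid12Δ than in cid16Δ. Among the 11 libraries without a tagged U6 this was the highest share, the next being 0.682% in mpn1Δrrp6Δ. Over all 19 end lists of the series, including those of strains with a tagged U6, cid12Δ ranked 8. The highest share there was 4.01%, in the list of tagged U6 from tU6-wt. The excess depended on tail length. Tails of 1 nt held 0.214%, 0.230% and 0.172% of reads and tails of 2 to 4 nt 0.336%, 0.392% and 0.334%, with little between the strains. From there it rose to 3.25-fold at 5 to 9 nt (0.332%, 1.11% and 0.341%) and 5.12-fold at 10 to 14 nt (0.109%, 0.621% and 0.121%), and then fell from 4.31-fold at 15 to 19 nt (0.135%, 0.669% and 0.155%) to 1.77-fold at 30 to 34 nt (0.0717%, 0.132% and 0.0747%). In the wt and wt (NO PNK) libraries, tails of 5 to 9 nt held 0.237% and 0.688% of reads, both below cid12Δ. Tails of 10 to 14 nt held 0.121% and 0.194% there, also below cid12Δ. At 1 nt (0.445% and 0.456%) and at 2 to 4 nt, both of these libraries were above cid12Δ. The short tails of cid12Δ also began more often with a G, at 43.8% of them against 23.9% in cid11Δ and 26.9% in cid16Δ. The mean U run before a long tail was 5.22, 5.29 and 5.24 nt.

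The list of distinct ends was longer in cid12Δ. It held 10817 ends in cid11Δ, 41925 in cid12Δ and 14109 in cid16Δ at full depth. At an equal depth of 2794598 reads, 10817, 32789 and 11669 distinct ends were expected, 2.81-fold more in cid12Δ than in cid16Δ. Ends seen once made up 72.7%, 69.2% and 70.6% of the lists, so the excess was not limited to them: with at least 10 reads there were 444, 2042 and 576 ends. The variety lay in the tails with other bases. At equal depth cid12Δ had 3.00-fold as many distinct long-tailed ends and 2.69-fold as many distinct short-tailed ones as the higher of the others, but only 1.17-fold as many A-tailed ends. At a depth of 408281 reads, common to all 19 end lists of the series, cid12Δ had 7831 expected distinct ends, the most of all, and the next was wt (NO PNK) with 3805.

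**Figure D4:**
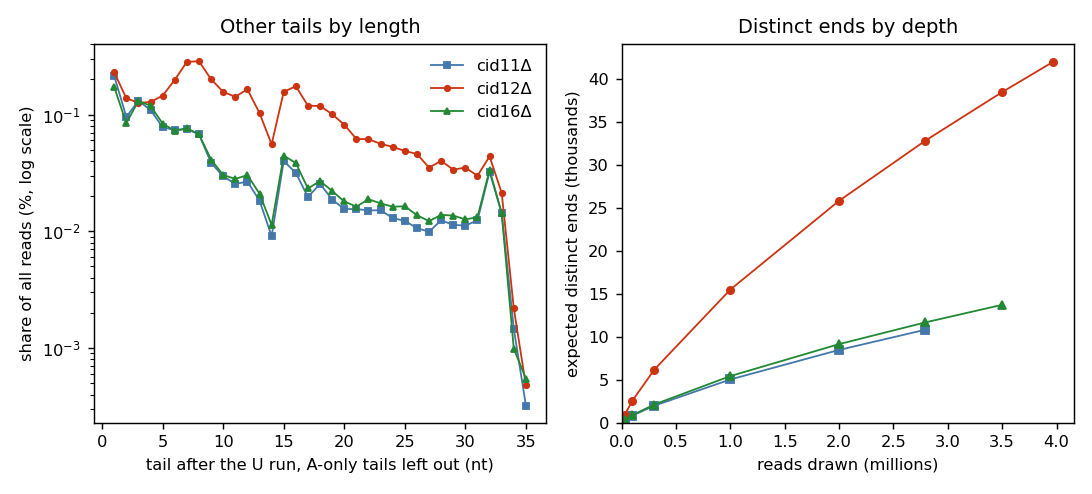
Left, share of all reads (%, log scale) by length of the tail after the U run (nt), A-only tails left out; right, expected number of distinct ends against reads drawn. Lines join values of single libraries; cid12Δ leaves the other strains from 5 nt on, and its count of distinct ends is 2.81-fold higher at equal depth.

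Most of the common cid12Δ ends were also listed in another of the 3 strains. Of its 41925 ends, 33073 (78.9%) were listed in neither cid11Δ nor cid16Δ, and 21250 of those had long tails. Of its 2042 ends with at least 10 reads only 75 (3.67%) were unlisted elsewhere, and of its 205 ends with at least 100 reads 0 were. Of the same 2042 ends, 1462 did not reach 10 reads in either other library. These ends were selected by their count in cid12Δ, the deepest library, so lower counts elsewhere are partly built into that selection.

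Some long tails matched other RNAs of the yeast. Tails were matched whole and without mismatch to both strands of ASM294v3, which the sources used here do not name as the authors' build. The examples that follow are the matched tails of 4 RNAs that were commonest in cid12Δ, the tRNA-Gly and rRNA ones chosen after their values were seen. The U6 Us are in lower case and the joined tail in capitals.
tRNA-Cys: tttttGGGGTCATAGCTCAG
tRNA-Leu: tttttGGATGGGTGTCCGAG
tRNA-Gly: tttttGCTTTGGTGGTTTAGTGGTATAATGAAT
28S rRNA: tttttGCGGGTAAACGGCGGG
The tRNA-Cys tail lies at chrI:1421149-1421163 on the plus strand, the first of 3 matching loci, and had 209 cid11Δ reads, 305 in cid12Δ and 243 in cid16Δ. The tRNA-Leu tail lies at chrI:3591948-3591962 on the plus strand and had 138, 162 and 149 reads. Neither of these common joined ends differed between the strains as a share of reads. The tRNA-Gly tail, at chrI:1646335-1646362 on the minus strand and 8 loci in all, had 21, 141 and 17 reads, and the 28S rRNA tail, at chrIII:7203-7218 on the minus strand, had 5, 58 and 18. Both were highest in cid12Δ, the deepest library and the one whose counts picked them, so their values describe those ends only.

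By source, tRNA tails made up 0.0555% of the cid11Δ reads, 0.0843% in cid12Δ and 0.0497% in cid16Δ (1.52-fold), and rRNA tails 0.0940%, 0.270% and 0.116% (2.33-fold). For context, rRNA tails made up 0.294% of reads in the wt library, above cid12Δ, and 0.0887% in the wt (NO PNK) library. Those of tRNA made up 0.0208% and 0.0144% there, below all 3 deletion strains. Pooled over tRNAs, most tRNA tails in all 3 strains began at the first annotated base of the tRNA, with 85.4%, 80.6% and 85.0%. This varied by tRNA. In cid12Δ it was 98.0% for tRNA-Cys, but 10% for tRNA-Arg, 7.35% for tRNA-Asp, 0.971% for tRNA-Glu and 23.9% for tRNA-Pro. A first base that is a T is taken into the U run, so such a start cannot be counted. Of 19 RNAs with at least 10 matched long-tail reads in each library, 11 were above both others in cid12Δ, 1 was between and 7 overlapped. Tails from 28S rRNA (0.0526%, 0.174% and 0.0700%; 2.48-fold), from 18S rRNA (0.0170%, 0.0645% and 0.0193%; 3.35-fold) and from tRNA-Gly (0.00462%, 0.0152% and 0.00376%; 3.28-fold) showed the excess, while tRNA-Cys tails (0.0174%, 0.0200% and 0.0161%) overlapped. In the wt library 18S rRNA tails made up 0.198% of reads, above cid12Δ, and 28S rRNA tails 0.0482%.

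Most of the excess in long tails was in tails without a match. Tails matched whole made up 0.161% of the cid11Δ reads, 0.367% in cid12Δ and 0.178% in cid16Δ (2.06-fold). Tails with no match, neither whole nor over their first 15 nt, made up 0.115% in cid11Δ, 0.845% in cid12Δ and 0.150% in cid16Δ (5.62-fold), and formed 33.9%, 64.0% and 38.8% of long-tailed reads. In the wt and wt (NO PNK) libraries tails matched whole made up 0.335% and 0.140%, and tails with no match 0.122% and 0.0925%. Among tails of 15 to 19 nt without adapter sequence the matched part was 51.6%, 26.3% and 45.7%, and in tails of 25 nt or more 61.5%, 35.5% and 60.7%, so the matched part was lowest in cid12Δ in both length ranges. The unmatched tails are not printed. Whether they stem from RNA of fission yeast or of another organism, which some resembled on inspection, was not tested. The share of long tails, their 3.40-fold excess and the count of distinct ends include them. With long tails kept only where they matched whole, the distinct ends expected at equal depth were 7636, 18559 and 7995 (2.32-fold). Tails that held sequence of the adapter or primer were about equally common, at 0.0425%, 0.0403% and 0.0396% of reads. What part the unmatched tails have in the other differences of cid12Δ was not tested.

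**Figure D5:**
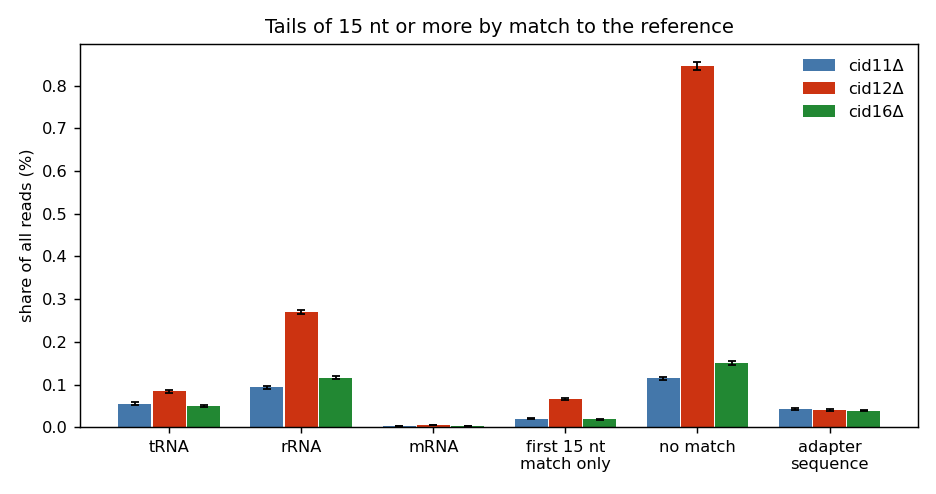
Share of all reads (%) whose tail of 15 nt or more matched tRNA, rRNA or mRNA sequence whole, matched over its first 15 nt only, did not match the S. pombe reference, or held adapter sequence; bars are single libraries of the 3 deletion strains and lines exact 95% intervals. The unmatched tails of cid12Δ (0.845%) stand highest, and adapter tails are level at 0.0396% to 0.0425%.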

How the data were processed

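Per the labels, the deposited tables list counts: the authors gave, for each distinct U6 end, its number of reads and its bases. The submitters' processing notes name CASAVA 1.8.2 and cutadapt, without saying what each did. For read filters and the genome build the authors' choices were not given in the sources used here. Counts were used as deposited. T was read as U, the leading Ts were taken as the U run and the rest as the tail. Shares use all reads with an end sequence. Intervals are exact (Clopper-Pearson, 95%); distinct ends at equal depth are exact hypergeometric expectations. A count of 0 allows a share (3 counts) of up to 0.000107% in cid11Δ, 7.56e-05% in cid12Δ and 8.23e-05% in cid16Δ. Tails with any 10 consecutive bases of the adapter, or of the start of the reverse complement of the reverse primer, were called adapter tails. ASM294v3 (RefSeq) served for matches and coordinates. Calculations used SciPy 1.17.1 and NumPy 2.4.6 under Python 3.11.15, with Matplotlib 3.10.9 for figures. The call on tails of 3 or more As was tested on simulated libraries, and the expected number of distinct ends on random draws from the cid11Δ counts. The other measures were not tested in this way.

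Groups came from sample titles. Named ends are the 5 commonest of each library, the 5 highest and 5 lowest folds among ends with at least 100 reads in each, and the 5 commonest with long tails or with 3 or more As. Letters of 1 such short tail and of long tails with adapter sequence or no match are not shown. The libraries, measures and lists were chosen with earlier results of these data known. Alternatives covered read minimums, Ns, merging of near-identical ends, equal weight per end, the line without sequence, denominators and length limits. Ligation and PCR can favour some ends, so shares describe the sequenced products.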

Additional observations from a re-analysis of the deposited data

How the results depend on the processing

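Differences below are cid12Δ minus the nearer of cid11Δ and cid16Δ, in percentage points unless stated. Of 49 alternatives over 8 results, 30 left the value about where it was, 16 moved it and 3 reversed it, and the call was the same in 36 of the 42 that allow one. The number of distinct ends was above both others in 7 of 7. Some of these used full depth or a minimum of reads per end, which favours cid12Δ, the deepest library. Counting each distinct end with at least 2 reads once, in place of reads, gives many rare ends the same weight as the 5-U end: the A-tailed share then differed by -1.25 in place of 0.776, that among 5-U ends by -0.368 in place of 0.285, and that with 3 or more As by -1.02 in place of 0.256, while the 6-U A-tailed share differed by 3.97, the 5-U end by -0.0164, long tails by 6.53 and the mean U run by 0.476 nt. In that count each list holds only 1 plain 5-U end and 1 plain 6-U end. The values for the 5-U end and for A tails among 5-U and 6-U ends thus only follow the number of distinct ends. Among 5-U ends cid12Δ lay between the others, and for the 6-U A-tailed share, the 5-U end and the mean U run the intervals overlapped. With ends of at least 10 reads, the 5-U end differed by -5.00, the A-tailed share by 0.813 and long tails by 0.325. Counting the line without sequence as 0 Us gave a mean U run difference of 0.00842 nt. Limits of 2 or 4 As gave 0.366 and 0.146, and limits of 10 or 20 nt for long tails gave 1.44 and 0.419. Alternatives chosen after seeing the data gave, over reads of Us or Us and As, -3.98 for the 5-U end, 0.864 for A tails and 0.269 for 3 or more As, and 0.192 for long tails matched whole. No paired analysis was possible because each strain has 1 library, for which reason no library could be left out either. Depth limits the rarest ends: at 10 or more Us, and for A tails on runs of 8 Us, the intervals overlapped.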

Other observations

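Rare long tails from other transcripts did not all follow the rRNA and tRNA ones. Tails matching mRNA made up 0.00301% of the cid11Δ reads, 0.00565% in cid12Δ and 0.00315% in cid16Δ, on 84, 224 and 115 reads, above both in cid12Δ. Tails matching long non-coding RNA made up 0.00433%, 0.00171% and 0.00527%, on 121, 68 and 192 reads, and were below both in cid12Δ. Tails matching snoRNA, on 23, 43 and 28 reads, overlapped.

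Ends without a leading U made up 0.129% of the cid11Δ reads, 0.130% in cid12Δ and 0.156% in cid16Δ, with cid12Δ between. Reads that ran from 8 or more Us on into the genomic sequence downstream of the T run were few in all 3 strains. They numbered 46, 147 and 82, or 0.00165%, 0.00371% and 0.00225% of reads. The share was highest in cid12Δ, but no interval was computed for a call.

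Of the distinct long tails matched whole, cid12Δ shared 1070 with cid11Δ, which is 49.4% of the cid11Δ list and 20.9% of its own. Of the tails not matched whole it shared 1118, which is 42.7% of the cid11Δ list and 7.08% of its own. With cid16Δ it shared 1328 matched tails (45.5% of the cid16Δ list and 25.9% of its own) and 1566 others (41.3% and 9.92%). Between them, cid11Δ and cid16Δ shared 861 matched tails (39.7% and 29.5% of their lists) and 624 others (23.8% and 16.4%). The lists held 2168, 5118 and 2916 matched tails and 2620, 15784 and 3796 others in cid11Δ, cid12Δ and cid16Δ. The cid12Δ list was longest and its library deepest, so low shares of its own list partly follow from its length.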
